A study of Homo sapiens with 9 samples.

Results

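The SPARC gene family was followed in HepG2 cells, a long-established line from a human liver tumour that keeps many functions of hepatocytes, after exposure to the recombinant protein of its founding member. The family was taken as the transcript clusters whose platform gene symbol is SPARC, SPARCL1, SPOCK1, SPOCK2, SPOCK3, SMOC1, SMOC2 or FSTL1. A transcript cluster is the set of array probes that reports 1 gene. Clusters were found for 7 of the 8 names, 1 cluster each, among 17687 genes in all, and FSTL1 was not analysed here because the annotation used here gives its symbol to no cluster. The 3 groups, of 3 arrays each, were untreated cells, cells given 200 ng/ml SPARC and cells given 800 ng/ml SPARC, and RNA was taken after 24 h. All groups were the same unmodified line, and neither the species nor the source of the recombinant protein is stated in the sources used here. No label says whether the replicates were separate cultures, so p-values reflect the spread between these samples alone, and that spread may be technical.

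SPARC, also called osteonectin or BM-40, is a secreted matricellular protein: it binds collagens, calcium and growth factors and tunes how cells adhere to the surrounding matrix, without being a structural part of it. Its relatives share a follistatin-like module and, in most members, an extracellular calcium-binding module with EF hands. SPARCL1 (hevin) is the closest relative and is known from astrocytes and blood vessels. The testicans SPOCK1, SPOCK2 and SPOCK3 are proteoglycans known mainly from brain, SMOC1 and SMOC2 are basement membrane proteins that modulate BMP signalling, and FSTL1 is a secreted glycoprotein of mesenchymal cells. In liver, SPARC is best known from stellate cells and fibroblasts and not from hepatocytes.

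Values are log2 signals, on which a difference of 1 is a doubling, and each array's median lay between 5.41 and 5.55. The table holds no detection calls, so a low signal cannot be told from background, and signals of different genes are not compared. Untreated replicate 2 stood apart: its correlation with every other array across clusters was 0.891 to 0.920, against 0.979 to 0.991 among the other 8 arrays. Its signals were also less spread out, with an SD of 1.67 where the other 8 arrays had 1.91 to 2.003. The mean log2 signal of 9 hepatocyte markers was between 10.3 and 10.6 on each array, and lowest in untreated replicate 2. There AFP, the fetal albumin homologue, had 8.16 against 8.93 to 9.19 on the other arrays. Not all markers were lower in that array: TTR had 8.11 against 7.57 to 7.77 on the other arrays, and APOB was above both other untreated arrays. Replicates 2 and 3 at 800 ng/ml also differed from replicate 1 for SPARC and SPARCL1.

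The sequences upstream of SPARC and SPARCL1 are shown because these were the members with high signals in 800 ng/ml replicates 2 and 3. The 250 bases before each RefSeq start site, in GRCh38.p14 and on the minus strand, are written from 5′ to 3′. SPARC lies on chromosome 5, at chr5:151661096-151686915, and the stretch shown is chr5:151686916-151687165, with GGAGGA in capitals. SPARCL1 lies on chromosome 4, at chr4:87473335-87529376, and the stretch shown is chr4:87529377-87529626, with TATAAA in capitals.
SPARC: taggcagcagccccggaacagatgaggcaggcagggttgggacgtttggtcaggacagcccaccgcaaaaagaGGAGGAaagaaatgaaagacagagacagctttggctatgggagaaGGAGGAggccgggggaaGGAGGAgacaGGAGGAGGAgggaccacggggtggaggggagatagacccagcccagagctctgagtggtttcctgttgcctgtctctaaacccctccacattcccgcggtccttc
SPARCL1: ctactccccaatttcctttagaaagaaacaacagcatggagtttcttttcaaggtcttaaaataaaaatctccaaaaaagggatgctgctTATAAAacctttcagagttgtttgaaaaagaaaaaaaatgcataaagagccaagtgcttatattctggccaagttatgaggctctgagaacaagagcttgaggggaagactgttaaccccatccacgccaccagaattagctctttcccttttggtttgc

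The pair of sequences had little in common in base composition, with 59.2% G or C upstream of SPARC and 38.8% upstream of SPARCL1. The purine-rich motif GGAGGA began at 5 places upstream of SPARC, from 177 to 102 bases before the start, with 1 pair overlapping, and at 0 places upstream of SPARCL1. Of 35116 RefSeq promoter windows of the same length, 31.8% held GGAGGA at least once on either strand and 0.669% held it at 5 or more places, a number set after the SPARC sequence was seen. TATAAA, the core of the TATA box, began 160 bases before the SPARCL1 start, farther upstream than the usual place of a TATA box, and was in 10.7% of windows. The GC box GGGCGG, in 42.6% of windows, and the AP-1 element TGANTCA, in 6.57%, were in neither sequence. A match of letters describes the window and shows no binding. Promoters of 7 of the 8 genes were in the RefSeq table.

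SPARC's own transcript (TC0500012519.hg.1) had log2 signals of 4.05, 4.27 and 4.15 in untreated replicates 1, 2 and 3. At 200 ng/ml it had 3.70, 3.92 and 3.51, and at 800 ng/ml it had 4.18, 6.79 and 6.48. The 3 arrays at 200 ng/ml lay below all untreated arrays, whereas at 800 ng/ml replicate 1 lay within the untreated range and replicates 2 and 3 far above it. Relative to the untreated mean, 800 ng/ml replicate 1 had a ratio of 1.01, while replicate 2 had 6.21 and replicate 3 had 4.99. Untreated cells averaged 4.16 ± 0.11 (SD, n = 3), cells at 200 ng/ml 3.71 ± 0.20 and cells at 800 ng/ml 5.81 ± 1.43. The SD at 800 ng/ml ranked 8 among those of the 17687 genes. In RNA from a whole culture, a change in the share of cells that hold a transcript and a change in its amount per cell cannot be told apart.

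SPARCL1 (TC0400011263.hg.1), the closest relative, had 3.55, 3.87 and 3.67 in untreated replicates 1, 2 and 3. It had 4.26, 3.76 and 3.50 at 200 ng/ml and 3.80, 6.48 and 6.39 at 800 ng/ml. The 800 ng/ml arrays split as they did for SPARC, with a ratio to the untreated mean of 1.08 in replicate 1 and of 6.85 and 6.44 in replicates 2 and 3. At 200 ng/ml the arrays overlapped with the untreated ones. Untreated cells averaged 3.70 ± 0.16 (SD, n = 3), cells at 200 ng/ml 3.84 ± 0.39 and cells at 800 ng/ml 5.56 ± 1.52, and the last of these SDs ranked 7 among all genes.

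**Figure D1:**
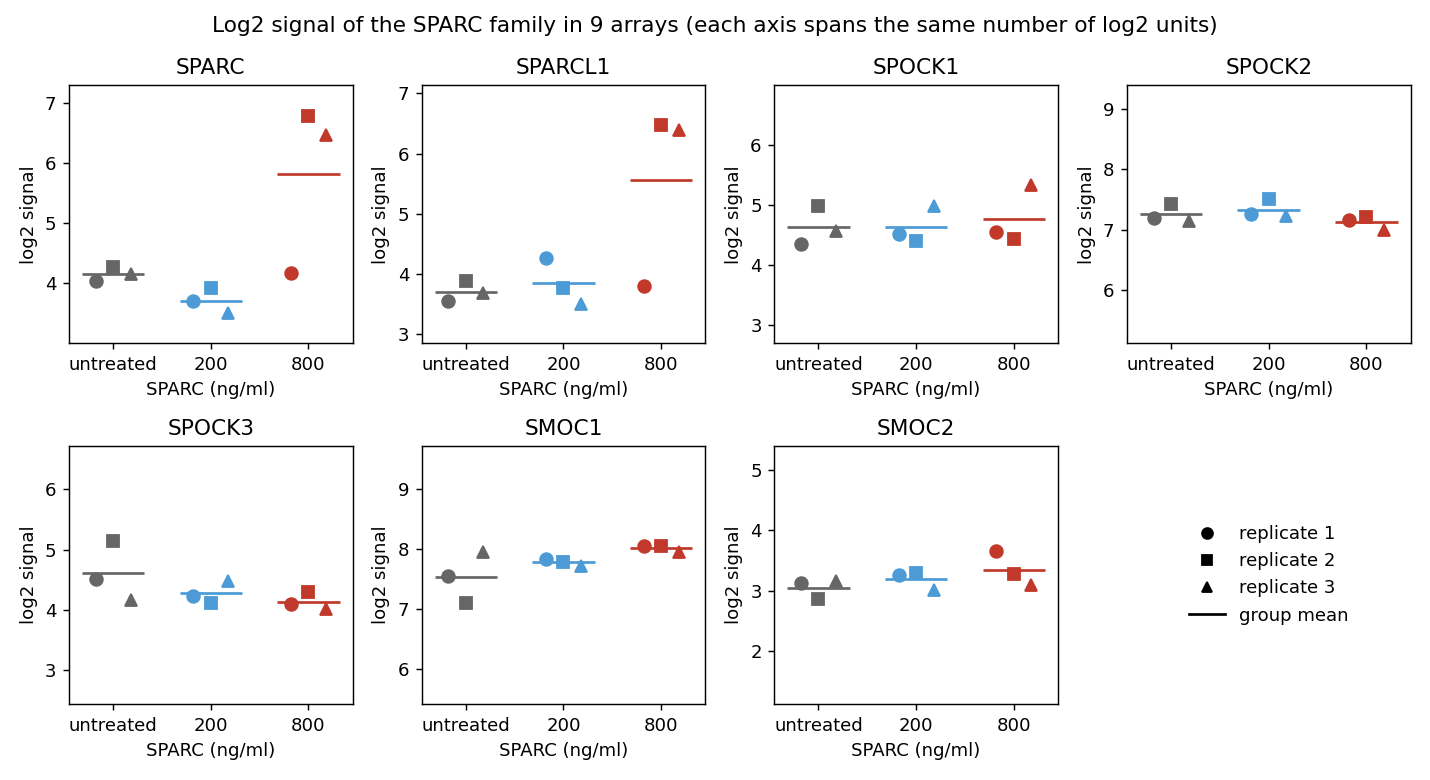
Log2 signal (vertical axes, each spanning the same number of log2 units) of the 7 measured family members in the 9 arrays, by SPARC dose in ng/ml. Points are arrays, shaped by replicate, and lines are group means. SPARC and SPARCL1 are high in 800 ng/ml replicates 2 and 3, at 6.39 to 6.79, whereas replicate 1 lies at 4.18 and 3.80 among the untreated and 200 ng/ml arrays. SPOCK2 and SMOC1 vary little at 800 ng/ml, and untreated replicate 2 is the lowest array of SMOC1 and the highest of SPOCK3.

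The testicans, proteoglycans with a SPARC-like core, showed no such split. SPOCK1 (TC0500012138.hg.1) had 4.35, 4.98 and 4.56 in untreated replicates 1, 2 and 3, 4.52, 4.40 and 4.99 at 200 ng/ml, and 4.55, 4.42 and 5.33 at 800 ng/ml. All 3 groups overlapped, and the highest array was 800 ng/ml replicate 3. SPOCK2 (TC1000010976.hg.1) had 7.20, 7.43 and 7.14 in untreated cells, 7.26, 7.51 and 7.22 at 200 ng/ml, and 7.17, 7.22 and 6.999 at 800 ng/ml. Its 9 arrays spanned 0.51, the narrowest range in the family, and the 800 ng/ml arrays lay just below those at 200 ng/ml. SPOCK3 (TC0400012350.hg.1) had 4.51, 5.15 and 4.16 in untreated cells, 4.22, 4.12 and 4.48 at 200 ng/ml, and 4.10, 4.29 and 4.01 at 800 ng/ml. Its highest array was untreated replicate 2, and the other 8 spanned 0.50.

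The SMOC proteins, which bind matrix and restrain BMP signalling in model animals, behaved differently from SPARC. SMOC1 (TC1400007566.hg.1) had 7.55, 7.09 and 7.95 in untreated replicates 1, 2 and 3, 7.83, 7.77 and 7.71 at 200 ng/ml, and 8.04, 8.04 and 7.95 at 800 ng/ml. The 800 ng/ml arrays were close together and lay above all others, although the lowest of them and untreated replicate 3 were both 7.95, while untreated replicate 2 was the lowest of the 9. SMOC2 (TC0600010263.hg.1) had 3.12, 2.86 and 3.16 in untreated cells, 3.26, 3.29 and 3.005 at 200 ng/ml, and 3.66, 3.28 and 3.10 at 800 ng/ml. Its highest array was 800 ng/ml replicate 1, the array in which SPARC was not raised, and the groups overlapped.

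The comparison of 800 ng/ml with untreated cells asks whether the higher dose alters the family's own transcripts. With all 9 arrays 0 of 7 members passed (limma, adjusted p under 0.05), as did 0 of 17687 genes (0%). Differences were positive in 5 of 7 members, against 54.6% of all genes. At an unadjusted p under 0.05 there were 2 members, SPARC and SPARCL1, while 4.17% of all genes reached it. SPARC had a log2 difference of 1.66 ± 0.52 (SE), with a 95% interval of 0.51 to 2.81 and an adjusted p of 0.659 in the limma fit. SPARCL1 had 1.86 ± 0.57, with an interval of 0.62 to 3.10 and the same adjusted p. The other members had smaller differences: 0.48 ± 0.22 for SMOC1, 0.30 ± 0.21 for SMOC2 and 0.14 ± 0.28 for SPOCK1. SPOCK2 had −0.13 ± 0.18 and SPOCK3 −0.47 ± 0.25. SMOC1 was the only member whose groups did not overlap, at 8.01 ± 0.05 (SD, n = 3) at 800 ng/ml against 7.53 ± 0.43 in untreated cells, and 6.08% of all genes were higher without overlap. No member, and 5.14% of all genes, was lower without overlap.

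Which arrays carried these differences was measured by leaving them out. Without 800 ng/ml replicate 1, 2 of 7 members passed as higher, SPARC and SPARCL1, beside 12 of all genes (0.0678%). SPARC then had a log2 difference of 2.48 ± 0.23 (SE) (limma, adjusted p = 0.00446) and SPARCL1 2.73 ± 0.26 (limma, adjusted p = 0.00490). Replicate 1 was the 800 ng/ml array in which neither was raised. Leaving it out therefore favours a call, and these p-values are no independent test of the dose. With replicates 2 and 3 left out instead, so that the lone 800 ng/ml array was assumed to vary like the other groups, SPARC had 0.018 ± 0.31 and SPARCL1 0.10 ± 0.36 (limma, adjusted p = 0.994 and 0.985). Without untreated replicate 2 they had 1.71 ± 0.62 and 1.94 ± 0.67 and again did not pass, and the pair reached an unadjusted p under 0.05 with 5.36% of all genes. In the same fit SMOC1 had 0.26 ± 0.14, SPOCK3 had −0.20 ± 0.16, SPOCK1 had 0.31 ± 0.27 and SPOCK2 had −0.043 ± 0.13. SMOC2 had 0.14 without 800 ng/ml replicate 1, its highest array, and SPOCK3 and SMOC1 had −0.70 and 0.69 without untreated replicate 3. Without untreated replicate 2 alone, the SMOC1 and SPOCK3 differences were thus smaller by over 1.5 times. In untreated replicate 2 SMOC1 deviated by −0.66 and SPOCK3 by 0.81 from the mean of the other untreated arrays.

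**Figure D2:**
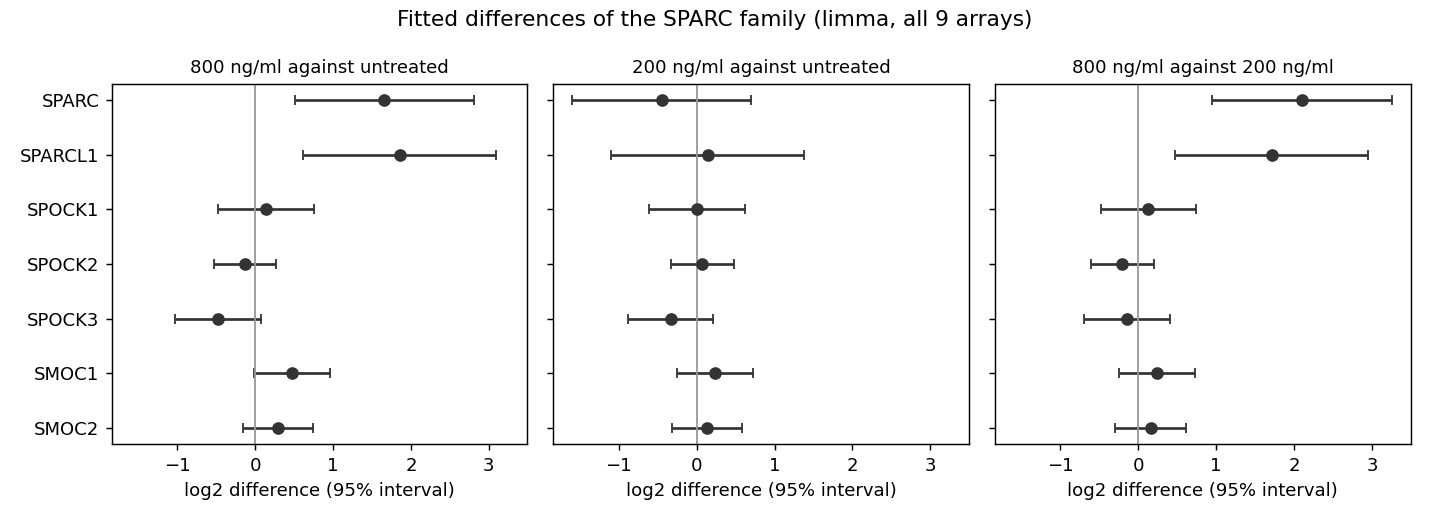
Fitted log2 differences (horizontal axes) with 95% intervals of the 7 family members in the 3 comparisons, from the limma fit of all 9 arrays. The intervals of SPARC and SPARCL1 exclude 0 at 800 ng/ml against untreated and against 200 ng/ml, but no member passed after adjustment over all genes, and all intervals at 200 ng/ml against untreated include 0.

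**Figure D3:**
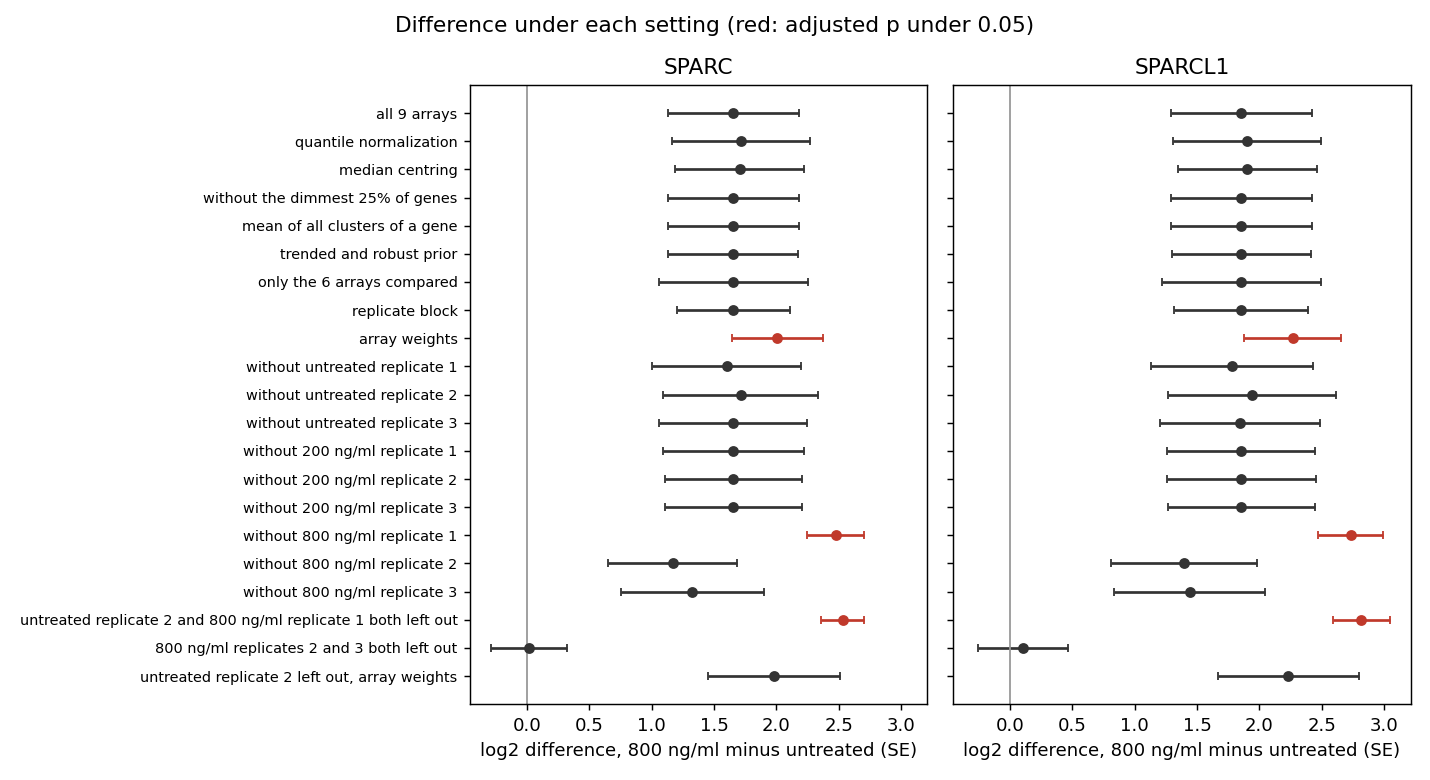
Log2 difference of SPARC and SPARCL1 at 800 ng/ml minus untreated (horizontal axis, bars are SE) with all 9 arrays and under each alternative setting (vertical axis). Red marks an adjusted p under 0.05. The SPARC difference ran from 0.018 without 800 ng/ml replicates 2 and 3 to 2.53 without untreated replicate 2 and 800 ng/ml replicate 1.

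At 200 ng/ml against untreated cells 0 of 7 members passed (limma), as did 0 of 17687 genes (0%), and 0 members reached an unadjusted p under 0.05, against 1.78% of all genes. Differences were positive in 5 of 7 members and 54.1% of all genes. SPARC had a log2 difference of −0.45 ± 0.52 (SE), with an interval of −1.60 to 0.70 (limma, adjusted p = 0.966). It was the only member whose groups did not overlap, and 3.06% of all genes were lower without overlap. The width of this interval draws on the spread of SPARC at 800 ng/ml, which the shared fit includes. Without 800 ng/ml replicate 1 the same difference had an SE of 0.20 and an interval of −0.90 to 0.005 (limma, adjusted p = 0.987). SPOCK3 had −0.33 ± 0.25 and SMOC1 0.24 ± 0.22, which became −0.063 ± 0.16 and 0.018 ± 0.14 without untreated replicate 2. The remaining members, SPARCL1, SMOC2, SPOCK2 and SPOCK1, had 0.14, 0.14, 0.074 and 0.0060, all with SEs above the difference.

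The comparison of 800 with 200 ng/ml sets the doses side by side and takes its differences from arrays other than the untreated ones. Again 0 of 7 members and 0 of 17687 genes (0%) passed (limma), with 2 members and 2.41% of all genes at an unadjusted p under 0.05. Differences were positive in 5 members and 52.3% of all genes. The SPARC difference was 2.10 ± 0.52 (SE) on the log2 scale, with a 95% interval from 0.95 to 3.25 (limma, adjusted p = 0.999), with the third smallest p of all genes. Its groups did not overlap, since even 800 ng/ml replicate 1, at 4.18, exceeded the highest 200 ng/ml array, at 3.92. SPARCL1 had 1.71 ± 0.57 with overlapping groups. SMOC1 was also higher without overlap, by 0.24 ± 0.22, which made 2 of 7 members against 12.1% of all genes. SPOCK2 was the member lower without overlap, by −0.20 ± 0.18, where 9.72% of all genes were lower in this way. Without 800 ng/ml replicate 1, SPARC and SPARCL1 passed, with 2.92 ± 0.23 and 2.59 ± 0.26 (limma, adjusted p = 0.00143 and 0.00796), among 15 genes in all (0.0848%). As above, leaving out the lowest 800 ng/ml array of both genes favours a call. With replicates 2 and 3 left out instead, they had 0.46 ± 0.31 and −0.037 ± 0.36.

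The genes most like SPARC were ranked by Pearson's r over the 9 arrays, among 8754 genes whose arrays spanned at least 1 on the log2 scale. The first 10 were GPM6A, ADCYAP1R1, RFTN2, NTRK2, SPARCL1, SOX2, OGFRL1, CRYAB, RAB31 and SRI, with r of 0.952 to 0.969. They include NTRK2, the receptor of brain-derived neurotrophic factor, with 3.63, 6.96 and 7.28 in 800 ng/ml replicates 1, 2 and 3. ADCYAP1R1, the receptor of the neuropeptide PACAP, had 3.39, 6.29 and 6.22 in the same arrays. SOX2, a transcription factor of stem and neural progenitor cells, had 4.07, 5.84 and 6.06, and GPM6A, a neuronal membrane glycoprotein, had 3.75, 5.84 and 5.59. Each of the 10 was high in the same 2 arrays, and over the other 7 arrays their r with SPARC was between −0.038 and 0.407. SPARC and SPARCL1 had r = 0.962 over 9 arrays and −0.014 over those 7. Without untreated replicate 2, 6 of the first 10 genes were shared with the list above.

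**Figure D4:**
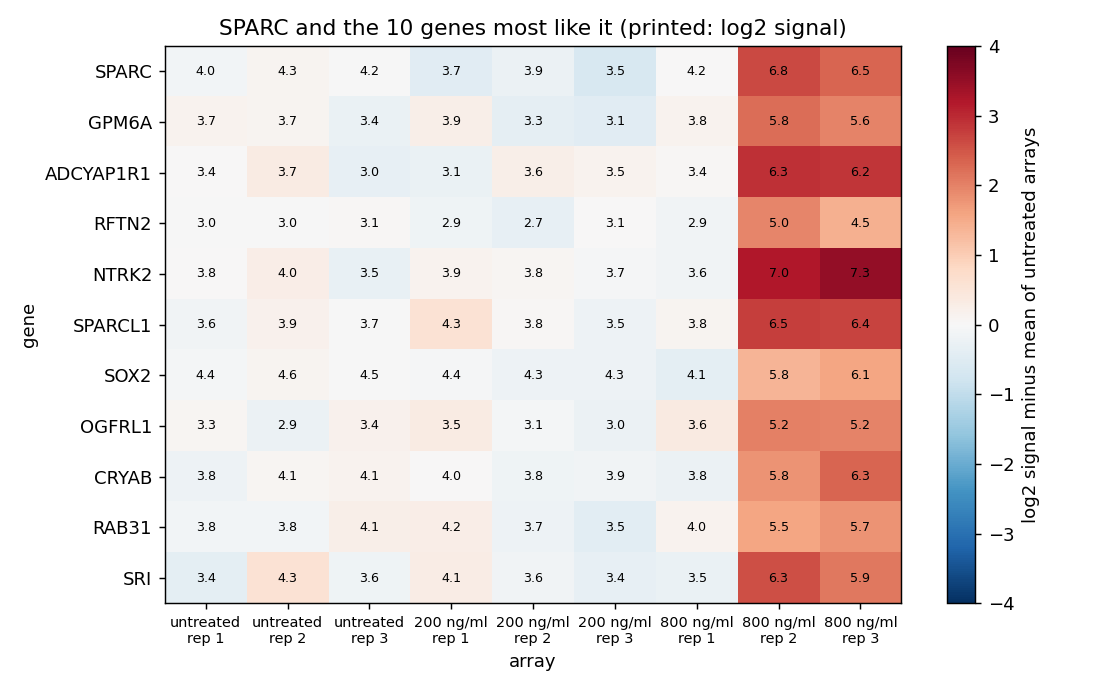
SPARC and the 10 genes with the highest Pearson correlation to it, by gene (rows) and array (columns). Colour is the log2 signal minus the mean of the untreated arrays and the printed values are log2 signals. All rows are high in 800 ng/ml replicates 2 and 3 and near the untreated level elsewhere.

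SPARC and SPARCL1 belong to a small set with this distribution. In 17 of 17687 genes (0.0961%) both 800 ng/ml replicates 2 and 3 lay at least 1 above the highest of the other 7 arrays. Of the 7 family members 2 were among them, with gaps of 2.20 for SPARC and 2.12 for SPARCL1. The pattern is the one that SPARC and SPARCL1 show, so their place in the set was given in advance. All 10 genes most like SPARC were in this set, but both selections rest on the same 2 arrays. Of 11 markers of astrocytes, where SPARC and SPARCL1 are both known to be made, 5 had both replicates above all other 7 arrays, as did 3.15% of all genes, and 2 were at least 1 above. None of the 11 passed the test at 800 ng/ml against untreated with all 9 arrays. GFAP, the astrocyte intermediate filament, had 4.54, 7.88 and 7.75 in 800 ng/ml replicates 1, 2 and 3, and exceeded the other arrays by 2.18, while NTRK2 exceeded them by 2.92. Both are among the 17 genes above, and the marker lists were chosen with earlier results known. The marker counts are therefore a description and no independent support. The margins were small for the glutamate transporters SLC1A3, at 0.29, and SLC1A2, at 0.098, and for S100B, at 0.11. SLC1A3 had 5.05, 6.72 and 6.74 in 800 ng/ml replicates 1, 2 and 3, against 4.83, 6.43 and 4.47 in untreated replicates 1, 2 and 3. In AQP4, ALDOC, FABP7, ALDH1L1, GJB6 and GJA1 the lower of the 2 replicates lay below the highest other array, by 0.039 in ALDOC and by 1.79 in GJA1, the gap junction protein connexin 43.

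The mean log2 signal of the 11 astrocyte markers was 4.56 to 5.07 in untreated cells and 4.50 to 4.72 at 200 ng/ml. At 800 ng/ml it was 4.59 in replicate 1, 5.52 in replicate 2 and 5.44 in replicate 3. These means include GFAP and NTRK2, the only 2 of the 11 at least 1 above the other arrays, and do not show a rise of the whole list. The highest untreated mean, 5.07, was that of untreated replicate 2. Of 9 neuronal markers 2 were above all other arrays in both replicates, MAP2 by 0.10 and NCAM1 by 1.16, and of 7 oligodendrocyte markers 1 was, CNP, by 0.028. Of the markers of cells that make SPARC in liver and vessels, 0 of 9 for fibroblasts and stellate cells and 0 of 8 for endothelium had this pattern, and 0 of 10 for blood and Kupffer cells and 0 of 9 for hepatocytes. With a share of 3.15% over all genes, a count of 0 in so short a list carries little information. The fibroblast list averaged 4.84, 4.79 and 4.84 in 800 ng/ml replicates 1, 2 and 3, and 4.77 to 5.61 in untreated cells, the highest being untreated replicate 2. No deposited value was 0, the lowest being 2.19. The part of neural transcripts in the SPARC and SPARCL1 signals was not tested.

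Other members had their own nearest profiles, given as a description over 9 arrays with r from 0.825 to 0.991. SPARCL1 was most like PMP2, a fatty acid-binding protein of peripheral myelin, with r = 0.991. PMP2 had 3.19, 5.83 and 5.90 in 800 ng/ml replicates 1, 2 and 3, and r over the 7 arrays without replicates 2 and 3 was 0.782. In those 7 arrays both genes were highest in 200 ng/ml replicate 1, SPARCL1 at 4.26 and PMP2 at 3.92. The next highest were 3.87 for SPARCL1 and 3.39 for PMP2, so this r leans on 1 array. SPOCK2 was most like OXTR, the oxytocin receptor (r = 0.936), followed by GSTT2 and DHDH, each high in untreated replicate 2 and 200 ng/ml replicate 2. SPOCK1 was most like CD1B, HBB and ZNF558, and SPOCK3 was most like ATP2C2, FGF6 and KLHL40, which were all highest in untreated replicate 2. SMOC1 was most like NEK9, ERI1 and BEND7, all lowest in untreated replicate 2, and SMOC2 was most like TRPC1, P2RX5-TAX1BP3 and TBC1D12, all highest in 800 ng/ml replicate 1. Within the family SPOCK3 and SMOC1 ran opposite to each other, with r = −0.924 over 9 arrays and −0.71 without untreated replicate 2.

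The genes around the family were read from 8 lists of relatives and partners. In each list 0 members passed in any of the 3 comparisons with all 9 arrays (limma). At 800 ng/ml against untreated cells the median log2 difference was 0.30 over the 7 family members and 0.044 over all genes. Among 14 other proteins with a follistatin-type module the median was 0.11, with 10 positive, 4 higher without overlap and 1 lower without overlap, beside 54.6%, 6.08% and 5.14% of all genes. IGFBP7, a secreted matrix protein, had 7.06, 7.64 and 7.65 in 800 ng/ml replicates 1, 2 and 3, against 7.06, 6.44 and 6.89 in untreated replicates 1, 2 and 3. Its difference was 0.65 ± 0.24 (SE), or 0.47 without untreated replicate 2. FSTL4, a follistatin-like protein, had −0.72 ± 0.22, with 4.47, 4.65 and 3.94 at 800 ng/ml against 4.93, 5.03 and 5.25 in untreated cells. Follistatin itself, FST, an activin antagonist, had 0.36 ± 0.22, and agrin, AGRN, a basement membrane proteoglycan, had 0.22 ± 0.19, which became 0.12 and 0.14 without untreated replicate 2.

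Collagens bound by SPARC had a median of −0.32 over 7 measured genes, with 1 positive, and −0.021 without untreated replicate 2. COL1A2, a chain of type I collagen, had 6.67, 6.55 and 6.54 at 800 ng/ml against 6.94, 8.20 and 6.71 in untreated cells, where replicate 2 was the highest array. Its difference was −0.70 ± 0.33 (SE), or −0.24 without that array. COL2A1, the cartilage collagen, had −0.55 ± 0.28, or −0.18 without it, and COL4A2, a basement membrane collagen, had 0.19 ± 0.24, or 0.46 without it. Proteases that cleave SPARC or SPARCL1 had a median of −0.35 over 9 genes, with 1 positive, and −0.12 without untreated replicate 2. ADAMTS5, an aggrecanase, had −0.48 ± 0.42, which turned to 0.16 without that array, where its signal was 5.60. MMP14, a membrane matrix metalloproteinase, had −0.40 ± 0.24, while the cathepsins CTSB and CTSK had −0.0042 ± 0.22 and −0.16 ± 0.17, and CTSB had −0.24 without that array.

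Receptors and cell surface partners of SPARC had a median of 0.053 over 10 genes, with 5 positive, and −0.057 with 4 positive without untreated replicate 2. STAB1, the scavenger receptor that takes up extracellular SPARC, had 4.85, 5.17 and 4.49 at 800 ng/ml against 5.20, 6.20 and 5.53 in untreated cells. The difference was −0.81 ± 0.27 (SE), or −0.53 without untreated replicate 2, and at 200 ng/ml it was −0.55 ± 0.27, from the same untreated arrays. ITGA5, the fibronectin receptor chain, had 3.51, 3.18 and 3.30 at 800 ng/ml against 3.85, 4.05 and 4.02 in untreated cells, a difference of −0.64 ± 0.19 without overlap. ENG and ITGB1, a TGF-beta co-receptor and the common integrin beta chain, had 0.24 ± 0.22 and 0.18 ± 0.21, which became 0.0015 and −0.041 without untreated replicate 2. Growth factors and receptors bound or modulated by SPARC had a median of 0.016 over 10 genes, or 0.0035 without that array. Among them PDGFB had −0.65 ± 0.37, VEGFC −0.47 ± 0.22, VEGFA 0.025 ± 0.17 and TGFB1 0.43 ± 0.28, all growth factors. Without untreated replicate 2 these became −0.091 for PDGFB, −0.25 for VEGFC, −0.049 for VEGFA and 0.056 for TGFB1.

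Other matricellular proteins, which like SPARC modulate matrix contact, had a median of −0.010 over 12 genes, with 6 positive. THBS1, a thrombospondin, and CCN2, connective tissue growth factor, had 0.32 ± 0.23 (SE) and 0.13 ± 0.22, which became 0.055 and −0.097 without untreated replicate 2. FBLN5, an elastic fibre protein, had −0.84 ± 0.42, or −0.19 without untreated replicate 2, and CCN4 had −0.41 ± 0.36, which turned to 0.058 without it. The BMP pathway, on which SMOC1, SMOC2 and FSTL1 act, had a median of 0.18 over 20 genes, with 13 positive, and −0.029 with 8 positive without untreated replicate 2. The ligand BMP4 had −0.019 ± 0.19 and its effector SMAD5 0.16 ± 0.20, while the BMP antagonists GREM1 and NOG had −0.51 ± 0.35 and −0.50 ± 0.24. Without that array BMP4 had −0.16, SMAD5 −0.036, GREM1 −0.060 and NOG −0.22. Among 5 proteinases that some testicans, though not each of them, are reported to inhibit, the median was −0.27, with 1 positive, and −0.019 without untreated replicate 2. MMP16 and MMP15, membrane metalloproteinases, had −0.58 ± 0.28 and 0.25 ± 0.23, which became −0.22 and −0.019 without it, and CTSL, a lysosomal cathepsin, had −0.019 ± 0.17.

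**Figure D5:**
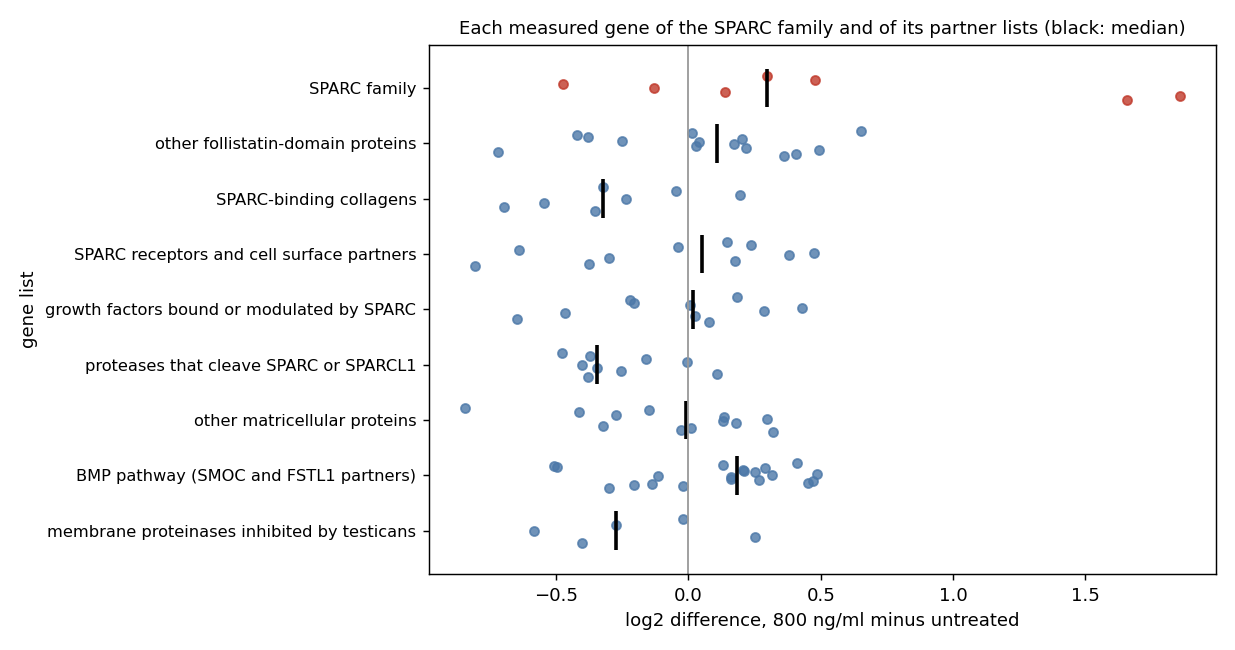
Log2 difference at 800 ng/ml minus untreated (horizontal axis) of each measured gene in the SPARC family (red) and in 8 lists of relatives and partners (blue), from the fit of all 9 arrays, with the median of each list in black. SPARC and SPARCL1, at 1.66 and 1.86, are the points farthest to the right, and the list medians lie between −0.35 and 0.30.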

How the data were processed

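The authors deposited 1 table with a log2 value per transcript cluster for each of 9 one-colour arrays of HepG2 RNA, 3 per group. The log2 scale was inferred from the values, 2.19 to 13.4. The submitters' processing notes name R 3.0. Normalization, background correction and filters are not stated in the sources used here. No array was a copy of another, and the number of arrays limits precision.

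Of 21448 clusters 17709 had 1 gene symbol, 0 several and 3739 none. Entrez identifiers matched to RefSeq names changed 0 symbols. The brightest cluster per gene was kept (17687 genes). The 3 groups were fitted together on the values as deposited with limma 3.58.1 in R 4.3.3 (lmFit, eBayes), two-sided, with Benjamini-Hochberg adjustment over all genes and a threshold of 0.05. Intervals are 95% intervals of that fit. The procedure was tested on simulated data.

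The members, lists and rule for named genes were chosen with earlier results of these data known. The rule named all members, the 10 genes most like SPARC, the 3 most like each other member, and in each list the 2 genes with the largest difference at 800 ng/ml and the 2 with the highest mean. Marker genes are those named beside SPARC. Comparisons with untreated cells share those arrays.

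Replicate numbers are shared by the groups. Deviations from the group means correlated at −0.25 to 0.11 for same-numbered arrays and at −0.24 to 0.27 for differently numbered ones. These values gave no sign of pairing by number, but with groups of 3 and an outlying array they cannot exclude it. Alternatives were other normalizations, filters on dim genes, cluster averaging, another prior, fewer arrays, the replicate block and array weights.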

Additional observations from a re-analysis of the deposited data

How the results depend on the processing

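The count of genes that passed was 0 in all 3 comparisons with all 9 arrays and under quantile normalization, median centring, both filters on dim genes, the mean of all clusters, the trended and robust prior and the fit of the 6 arrays compared. With array weights it was 732 at 800 ng/ml against untreated, 1971 at 200 ng/ml against untreated and 6 between the doses, with 3 (SPARC, SPARCL1 and SMOC1), 0 and 0 family members. These weights were 0.0399 for untreated replicate 2 and 10.7 for untreated replicate 1. With untreated replicate 2 left out and array weights it was 0 in each, and with untreated replicate 2 and 800 ng/ml replicate 1 both left out it was 24, 0 and 25, with 2, 0 and 2 family members. Leaving out each array in turn gave 0 to 12, 0 and 0 to 15 genes and 0 to 2, 0 and 0 to 2 members. Without untreated replicate 2, genes at an unadjusted p under 0.05 numbered 2002, against 315 with all arrays, at 200 ng/ml against untreated, and 2698, against 427, between the doses. The replicate block gave 0 genes and changed no call, and the labels give no pairing beyond a shared number.

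Small differences without a call changed sign. At 800 ng/ml against untreated, SPOCK1 ran from −0.14 to 0.31 when arrays were left out in turn and was −0.080 without 800 ng/ml replicates 2 and 3. At 200 ng/ml against untreated the same ranges were −0.17 to 0.18 for SPOCK1, −0.069 to 0.31 for SPARCL1 and −0.017 to 0.16 for SPOCK2. SPOCK2 was −0.066 after quantile normalization, and SMOC1 and SMOC2 were −0.0071 and −0.015 without untreated replicate 2 and with array weights. Between the doses SPOCK1 ran from −0.15 to 0.31, and without 800 ng/ml replicates 2 and 3 SPOCK1 was −0.086 and SPARCL1 −0.037. The cause was not tested. SPARC kept its direction in each comparison under all 20 alternatives that measured it. The filters on the dimmest 25% and 50% of genes removed SMOC2, and the second also SPARC, SPARCL1, SPOCK1 and SPOCK3, whose mean signals are below that of the median gene.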
